A study of Nothobranchius furzeri with 10 samples.

Results

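Among 26739 gene models measured in killifish muscle, 200 were chosen by their low spread over all 10 libraries. Counts were scaled by median-of-ratios size factors, a scaling that sets the typical ratio between libraries to 1, and expressed as CPM, counts scaled to the mean library total. Of 5961 gene models with a mean of at least 10 CPM, the 200 with the lowest coefficient of variation (CV, the SD over the mean) were taken, which is 3.36% of them. The spread over the 10 libraries, and the levels in each library from which it comes, are therefore what the choice used, and they are given as a description with no test.

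Muscle RNA came from males of Nothobranchius furzeri, the turquoise killifish, an annual fish with a short life, with 5 libraries from fish exercised in a swim tunnel and 5 from fish with no perturbation. Every sample was from line 4010 and 10 weeks old, and both groups carried the transgene Tg(mylz2:egfp,tfam). The name joins mylz2, which encodes a light chain of myosin in fast fibres, with the fluorescent marker egfp and with tfam, a protein that binds mitochondrial DNA and drives its transcription. The controls thus carried the transgene too, and no group without it was compared. Whether each sample was a separate animal is not stated in the labels, so the error behind each p-value is that among libraries and may be partly technical. In bulk muscle, fewer cells of a type and less RNA per cell cannot be told apart.

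Transcripts whose level hardly varies between samples are used in muscle work as reference genes, against which other transcripts are measured. In many tissues such transcripts include those of general upkeep, such as protein turnover, splicing and membrane traffic. Scaling of whole libraries rests on the same idea, since it takes the bulk of transcripts to be level. The files give identifiers without names, and 0 of them matched the reference gene table, so no role, marker or sequence can be given for any of the 200, and the muscle label was not checked against marker genes.

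Library totals ran from 25927913 to 40433810 counts. Exercised replicate 3 and unexercised replicate 4 stood apart from the other 8 libraries in most gene models. Some results below are also given without them, and the rest rest on all 10 libraries. All 200 gene models had counts in every library, from 209 to 14183 per library, and all 200 passed the filter on low counts used for the test between groups.

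The 200 gene models were of middling abundance among those eligible. Their mean level ran from 10.1 to 327 normalised CPM with a median of 21.4, against a median of 24.5 CPM and a highest level of 135457 CPM over all 5961. Between 10 and 20 CPM the 200 held 88 of 2378 gene models (3.7%), and between 20 and 50 CPM 92 of 2087 (4.41%). Between 50 and 100 CPM they held 14 of 719 (1.95%), and at 100 CPM and above 6 of 777 (0.77%). The most abundant transcripts of this muscle were thus hardly represented, although counting noise was smallest there.

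The CV over 10 libraries ran from 3.46% to 9.78% with a median of 8.33%, against a median of 28.5% over all 5961. Each library lay within 1.2-fold of a gene model's own mean for 166 of the 200, against 4.11% of the 5961. The ratio of the highest to the lowest library had a median of 1.29 and reached at most 1.46 among the 200, where the median over the 5961 was 2.50.

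**Figure D1:**
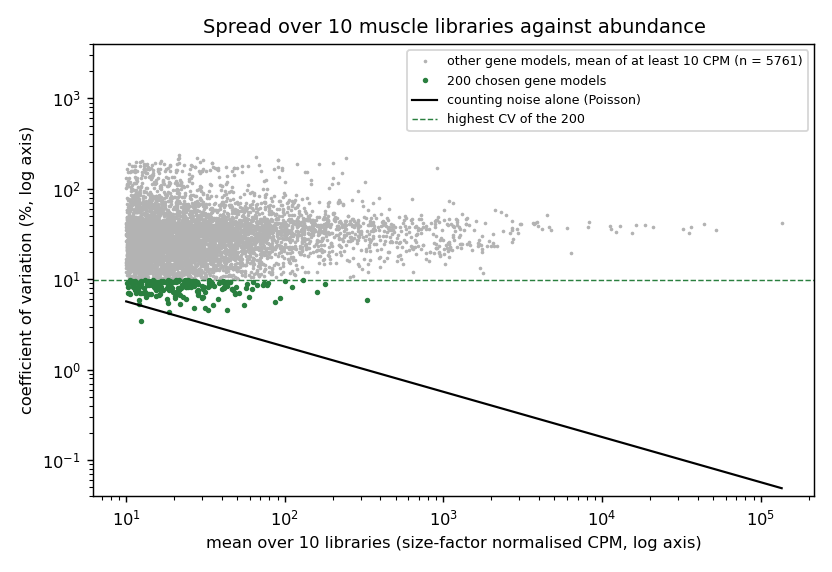
Coefficient of variation (%) against mean level (normalised CPM) over 10 libraries, both on log axes, for 5961 gene models with a mean of at least 10 CPM. Green points are the 200 chosen gene models, grey points the others, and the black line is the CV from counting alone; the green points lie between that line and 9.78%, with 1 below it, and thin out above 100 CPM.

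Counting reads gives a CV of its own, set by the number of counts. For the 200 it had a median of 3.89% (range 0.995% to 5.66%), and the observed CV was a median of 2.10 times as large, against 8.33 times over the 5961. The CV was at most 1.5 times the counting CV in 31 of the 200 and at most 2 times in 88, and it was over 3 times the counting CV in 28. With the counting part taken off, a CV with a median of 7.33% was left. The ratio rose with abundance within the 200, from a median of 1.74 between 10 and 20 CPM to 5.61 at 100 CPM and above, since counting noise falls with abundance and the limit on the CV does not. No molecular identifiers mark the reads, so PCR copies are counted too, and the counting CV covers counting error only.

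The lowest spread of all belonged to Nfu_g_1_020948, which stood at 11.9, 12.3, 12.9, 11.8 and 12.4 normalised CPM in exercised replicates 1 to 5. In unexercised replicates 1 to 5 it stood at 12.8, 12.9, 12.4, 13.0 and 12.3 CPM. All 10 values lay between 11.8 and 13.0 CPM, and the groups overlapped. Its CV of 3.46% was 0.678 times the 5.10% that its mean of 408 counts gives by counting, and it was the only 1 of the 5961 below its counting CV. A value below the counting CV was picked here as the lowest of many.

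Nfu_g_1_002741 came next, with 18.7, 18.5, 18.1, 18.9 and 19.9 CPM in exercised replicates 1 to 5. Its unexercised replicates 1 to 5 had 19.3, 17.0, 19.1, 17.9 and 19.2 CPM. Unexercised replicate 2 was the lowest, the groups overlapped, and the CV of 4.38% was 1.05 times the counting CV. Nfu_g_1_007778 had 34.8, 33.0, 31.4, 32.1 and 33.1 CPM in exercised and 31.9, 33.4, 31.9, 35.3 and 30.5 CPM in unexercised replicates 1 to 5. Its highest library was unexercised replicate 4 and its lowest unexercised replicate 5, with a CV of 4.57%, 1.45 times the counting CV.

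The most abundant of the 200 was Nfu_g_1_015352, with 319, 330, 307, 357 and 326 CPM in exercised replicates 1 to 5. It had 325, 319, 348, 294 and 348 CPM in unexercised replicates 1 to 5. Both libraries that stood apart held the lowest value of their group, and the groups overlapped widely, with means of 328 ± 18.5 and 327 ± 22.3 CPM (SD, n = 5 each). Its CV was 5.90%, which is 5.93 times the counting CV of 0.995%, so nearly all of its spread was beyond counting.

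Nfu_g_1_011587 followed with 185, 185, 210, 184 and 149 CPM in exercised and 170, 189, 179, 168 and 180 CPM in unexercised replicates 1 to 5 (CV 8.81%). Exercised replicate 3 was its highest library and exercised replicate 5 its lowest, so its spread was mostly within the exercised group. Nfu_g_1_000631 had 151, 167, 140, 174 and 171 CPM in exercised and 167, 160, 166, 143 and 156 CPM in unexercised replicates 1 to 5 (CV 7.32%). As in the most abundant gene model, exercised replicate 3 and unexercised replicate 4 were the lowest of their groups.

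At the other end, the least abundant of the 200 was Nfu_g_1_007700, with 10.2, 10.6, 10.2, 9.73 and 11.5 CPM in exercised and 10.9, 10.8, 9.14, 9.78 and 8.35 CPM in unexercised replicates 1 to 5. Its CV of 9.06% was 1.601 times its counting CV of 5.66%. The last gene model inside the limit, Nfu_g_1_004848, had 21.8, 23.4, 22.1, 22.9 and 23.4 CPM in exercised and 28.3, 22.0, 26.3, 23.8 and 20.5 CPM in unexercised replicates 1 to 5, for a CV of 9.783%. The first outside it, Nfu_g_1_010249, had a CV of 9.790% at a mean of 38.4 CPM, so the limit falls where gene models lie close together.

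**Figure D2:**
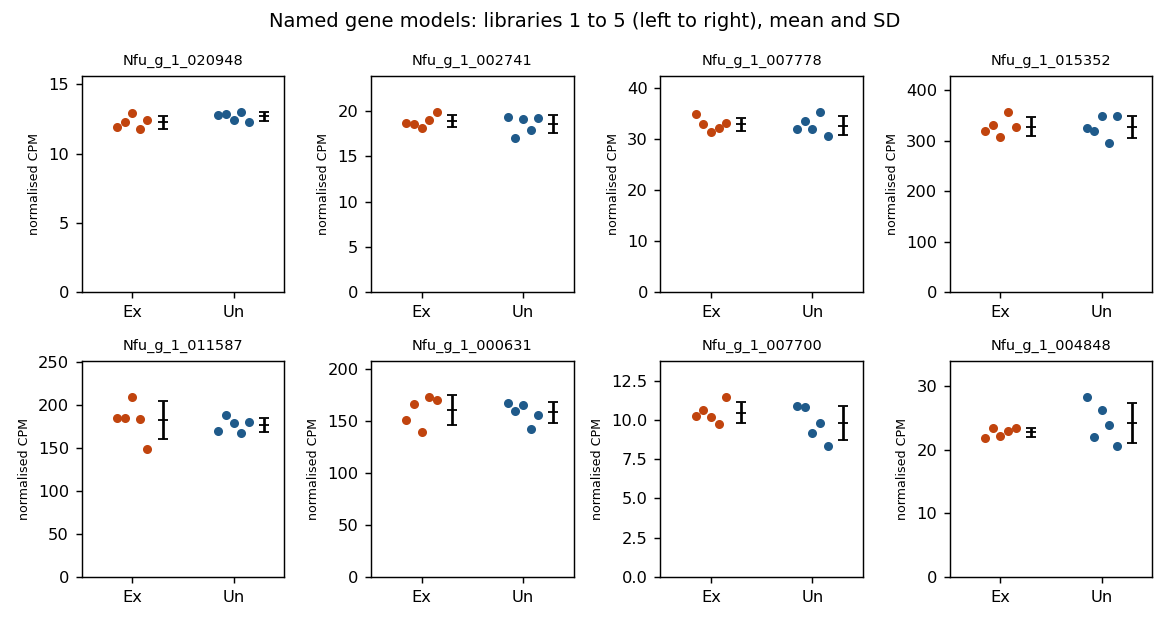
Normalised CPM of 8 of the 200 gene models in each library, with axes from 0. Points are replicates 1 to 5 from left to right in exercised (Ex, red) and unexercised (Un, blue) muscle, and bars are the mean and SD of each group; the groups overlap in all 8 panels.

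Gene model length took no part in the choice. The 200 had a median length of 5103 bases, against 3511 bases in the 5761 eligible gene models not chosen. Among the 1490 shortest eligible gene models (23 to 1892 bases) 31 were chosen, or 2.08%, and among the 1492 longest (5785 bases and above) 82, or 5.50%. The 2 length classes between held 34 (2.28%) and 53 (3.56%), so the share was higher in each longer class. The median level was 26, 24.7, 22.7 and 25.4 CPM from the shortest to the longest class, and the median CV over all eligible gene models was 30.7%, 30.1%, 28.1% and 24.8%. Per kilobase the 200 stood at a median of 4.78 normalised CPM, against 7.95 over the 5961. These are descriptions of gene models, which are not independent replicates, and what moves with length was not tested.

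The 200 were steady after scaling by size factors, which follows from the choice, and not on the share of the library total. In exercised replicates 1 to 5 the 200 together made up 0.45%, 0.51%, 1.04%, 0.55% and 0.57% of all counts. In unexercised replicates 1 to 5 they made up 0.58%, 0.50%, 0.54%, 1.04% and 0.52%. Exercised replicate 3 and unexercised replicate 4 thus had a share 1.97 times the mean of the other 8, and the other 8 lay close together. After scaling, the sum of the 200 came to 5949 ± 83.9 CPM with exercise and 5982 ± 121 CPM without (SD, n = 5 each), with 5840 and 5879 CPM in the libraries that stood apart.

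**Figure D3:**
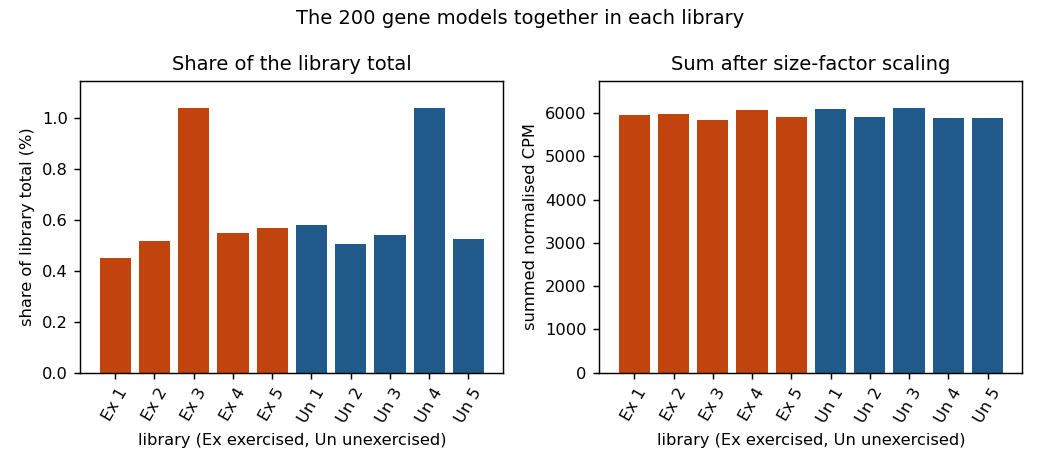
The 200 gene models summed in each library, as bars from 0, in exercised (Ex, red) and unexercised (Un, blue) replicates. Left, share of the library total (%), which is 1.04% in Ex 3 and Un 4 and at most 0.58% elsewhere; right, summed CPM after size-factor scaling, which lies between 5840 and 6132.

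With library totals alone, the median of the 200 was 1.98-fold higher in the libraries that stood apart than in the other 8. Each of the 200 was higher there, by 0.70 to 1.26 on the log2 scale. The median log2 ratio was 0.99 for the 200 and 0.63 over all 5961, so this rise was not particular to the 200. The median CV of the same 200 was then 35.8%, above the 33.6% of all 5961, and 0 of the 200 were among the 200 most stable gene models on that scale. With TMM factors, another scaling across all gene models, 178 of the 200 were chosen again, and with upper-quartile factors 120. A gene model can therefore be called stable here only relative to the scaling, and the labels name no outside standard such as spiked RNA.

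Used as a scaling of their own, the 200 gave factors close to those of all gene models. The geometric mean of their counts lay between 0.982 and 1.026 times the size factor in the 10 libraries, and between 0.964 and 1.025 times the TMM factor. This closeness follows from the choice.

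Within the 200, exercised replicate 3 and unexercised replicate 4 still differed from the rest together, in small measure. The log2 ratio of these libraries to the other 8 ran from -0.31 to 0.25, with a median of -0.02 and a median size of 0.11, against a median of -0.37 and a median size of 0.74 over the 5961. Both lay above all of the other 8 libraries for 14 of the 200 and below them for 25, against 20.05% and 44.2% of the 5961. Across the 200, deviations from each gene model's mean gave r = 0.349 for this pair, where r in the other 44 pairs of libraries ran from -0.341 to 0.140 (n = 200 gene models). The deviations of a gene model sum to near 0 over the 10 libraries, so a typical pair is below 0, and the points share libraries and scaling. The largest component of the deviations held 24.0% of their variance, with weights of 0.63 and 0.54 in these libraries and between -0.36 and 0.04 in the other 8.

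The spread within each group was of similar size. Among the 200 the median CV was 7.17% within the 5 exercised and 8.29% within the 5 unexercised libraries, and it was larger within the unexercised for 108 of them (54.0%, against 44.4% of the 5961). Median deviations of the 200 in a library lay between -0.03 and 0.04 on the log2 scale. The extremes were not evenly spread over the libraries. Unexercised replicate 1 held the highest value for 32 of the 200 and the lowest for 5, and unexercised replicate 3 the highest for 36 and the lowest for 13. Unexercised replicate 5 held the highest for 10 and the lowest for 28, and exercised replicate 3 the highest for 24 and the lowest for 35. The median deviation of the 200 was 0.04 and 0.03 in unexercised replicates 1 and 3. It was -0.03 in both unexercised replicate 5 and exercised replicate 3. How far such shared shifts set these counts was not tested.

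Whether steadiness carries over was read in libraries the choice did not use. Each library in turn was held out, the 200 gene models with the lowest CV in the other 9 were chosen, and their deviation in the held-out library from the mean of the 9 was measured, with the size factors of all 10 libraries. The median size of that deviation was 0.11 on the log2 scale (range 0.08 to 0.17 over the 10 libraries), against 0.24 (0.20 to 0.68) for all eligible gene models. Between 148 and 187 of the 200 (74.0% to 93.5%) lay within 1.2-fold of the mean, against 21.8% to 60.6% of all eligible. The 200 were closer in each of the 10 held-out libraries, and between 155 and 185 of them were among the 200 chosen on all 10.

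**Figure D4:**
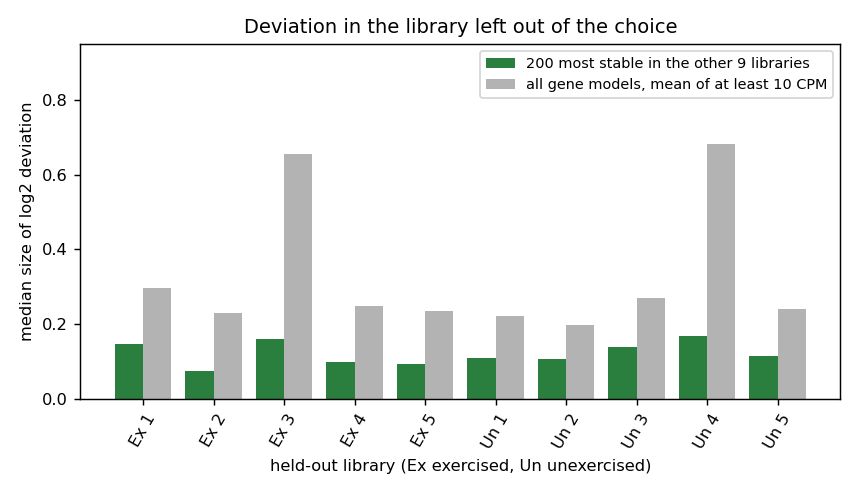
Median size of the log2 deviation in a library left out of the choice, for the 200 gene models most stable in the other 9 libraries (green) and for all gene models with a mean of at least 10 CPM (grey), as bars from 0. The green bars lie between 0.08 and 0.17 and below the grey bar in each library; the grey bars reach 0.66 in Ex 3 and 0.68 in Un 4.

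When exercised replicate 3 or unexercised replicate 4 was held out, the other remained among the 9. With both left out of the choice, carrying over was weaker. The 200 most stable in the 8 other libraries had a median CV of 5.90% there. The mean of the libraries that stood apart deviated from the mean of the 8 by a median size of 0.46 on the log2 scale, against 0.71 for all eligible. Of those 200, 67 (33.5%) lay within 1.2-fold of the mean of the 8, against 20.9% of all eligible. A further 39 (19.5%) were more than 2-fold off, against 34.9%. Both libraries lay above all of the 8 for 49 of those 200 and below them for 111, against 20.05% and 44.2% of the 5961. The 5961 were eligible on all 10 libraries, while those 200 came from the 5735 eligible on the 8. The choice made the range of the 8 narrow, so lying outside it was easier. Also 67 of the 200 chosen on the 8 were among the 200 chosen on all 10. The 200 chosen on all 10 libraries had a median CV of 7.65% in the 8 libraries, against 16.4% over the 5961. All 200 had a mean of at least 10 CPM there, with a median rank of 332.5 by CV among 5735 gene models and 192 in the lowest 1000. These 8 libraries are part of the 10 that made the choice.

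Choice within 1 group and reading in the other gave a related picture. Each group held 1 of the libraries that stood apart, so each choice used 1 of them and was read with the other. The 200 with the lowest CV in unexercised muscle had a median CV of 5.67% there and 12.1% in exercised muscle, where all eligible gene models had 27.9%. The 200 with the lowest CV in exercised muscle had 6.12% there and 10.3% in unexercised muscle, where all eligible had 25.5%. The lists shared 45 gene models, or 22.5% of each. Between the groups, those chosen in unexercised muscle differed by a median size of 0.15 on the log2 scale, against 0.16 for all eligible, and those chosen in exercised muscle by 0.10, against 0.16.

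Between exercised and unexercised muscle, the 200 differed little in level, and the limit on the CV bounds how far they could. The log2 ratio of group means ran from -0.22 to 0.24, with a median of -0.01 and a median size of 0.06, against a median size of 0.16 over the 5961. For gene models chosen in 1 group alone the difference, given above, was larger. Means were within 10% of each other for 181 of the 200 (90.5%), against 42.8% of the 5961. The mean was higher in exercised muscle for 98 and lower for 102. That balance moved with the scaling: the count of higher means was 105 under TMM, 73 under upper-quartile scaling and 78 under library totals.

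**Figure D5:**
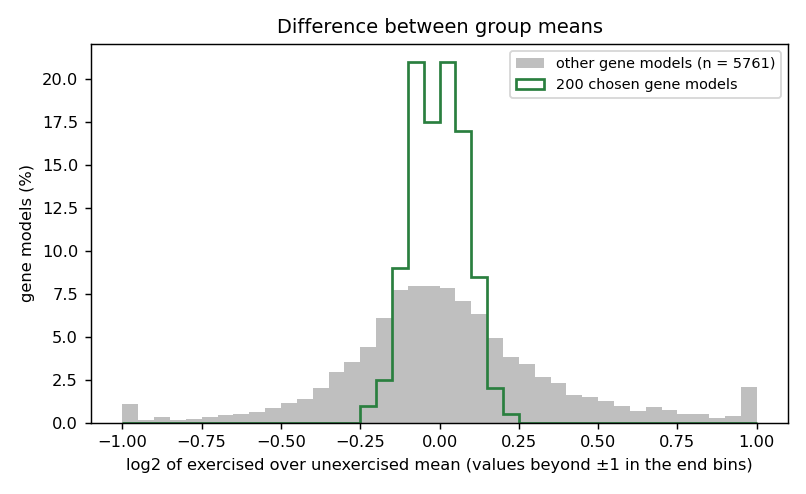
Distribution of the log2 ratio of exercised to unexercised group means, as percent of gene models in bins of 0.05, for the 200 chosen gene models (green outline) and the 5761 others with a mean of at least 10 CPM (grey). The 200 lie between -0.22 and 0.24, and grey values beyond 1 in size are drawn in the end bins.

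In edgeR's quasi-likelihood test of all 10 libraries with Benjamini-Hochberg adjustment, 0 of the 200 passed an adjusted p of 0.05, and 0% of the 15337 gene models tested did. At an unadjusted p under 0.05 there was 1 of the 200, against 9.51% of all tested. DESeq2 called 2.69% of all gene models and limma voom with quality weights 11.8%, with 0 of the 200 in either. Unadjusted p-values were under 0.05 for 6 of the 200 in DESeq2, against 10.8% of all tested, and for 4 in voom, against 25.9%. Without both libraries that stood apart, edgeR called 6.24% of 15200 gene models and again 0 of the 200. The unadjusted p was then under 0.05 for 2 of the 200, against 21.5% of all tested. Since the choice limits their differences, the 0 calls among the 200 are a description of them, and a p above the threshold does not show that levels were the same.

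The standard errors of edgeR were larger than the replicates of the 200 alone would give. The SE of the log2 fold change had a median of 0.122 among the 200 (lowest 0.105), while the SE from the spread of the replicates of each gene model alone had a median of 0.0745. The edgeR SE was the larger for all 200, by a median of 1.66 times, against 1.09 times over the 5960 eligible gene models tested. The 200 were chosen for a low spread over these same replicates, so a small replicate SE was part of the choice and nothing is read from this excess. The quasi-likelihood method draws the spread of each gene model towards that of others of like abundance.

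The groups did not overlap for 4 of the 200. In 1 gene model every exercised library was higher (0.5% of the 200, against 1.43% of all gene models tested). In 3 every exercised library was lower (1.5%, against 1.15% of all tested). Over the 5961 eligible gene models the shares were 1.74% higher and 1.44% lower. Nfu_g_1_016601 had 12.7, 12.3, 14.0, 13.3 and 13.5 CPM in exercised and 11.4, 10.8, 11.3, 11.2 and 11.2 CPM in unexercised replicates 1 to 5. The lowest exercised library lay above the highest unexercised library, with means of 13.2 ± 0.656 and 11.2 ± 0.23 CPM (SD, n = 5 each). It did not pass the test (log2 fold change 0.24 ± 0.106, SE; adjusted p = 0.525 in edgeR).

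Nfu_g_1_018520 had 30.4, 31.4, 30.0, 30.0 and 31.2 CPM in exercised and 37.6, 33.5, 38.3, 32.7 and 36.3 CPM in unexercised replicates 1 to 5. The exercised libraries lay close together below the unexercised ones, and the log2 fold change was -0.22 ± 0.114 (SE; adjusted p = 0.619 in edgeR). Nfu_g_1_009006 had 25.1, 24.0, 25.3, 25.4 and 21.6 CPM in exercised and 28.7, 28.1, 26.4, 26.7 and 29.7 CPM in unexercised replicates 1 to 5. It also parted without overlap, with exercised replicate 5 the lowest (log2 fold change -0.20 ± 0.112, SE; adjusted p = 0.682 in edgeR). The remaining gene model without overlap, Nfu_g_1_000359, was named after its values were seen. It ran from 26 to 27.6 CPM in exercised and from 27.9 to 33.1 CPM in unexercised muscle, so that the groups only just parted.

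Second by p among those higher in exercised muscle was Nfu_g_1_013419, with 46.4, 40.1, 45.7, 43.1 and 44.8 CPM in exercised and 38.2, 36.3, 42.0, 40.1 and 39.1 CPM in unexercised replicates 1 to 5. Its groups overlapped, since exercised replicate 2 lay below unexercised replicate 3 (log2 fold change 0.17 ± 0.12, SE; adjusted p = 0.828 in edgeR). None of these 5 gene models passed the test. Nfu_g_1_000359 was picked for its lack of overlap and the other 4 for the lowest p-values in each direction among the 200, so a lack of overlap among them is no separate support.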

How the data were processed

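Libraries of muscle RNA from 10 samples were made with Illumina's TruSeq kit v2, per the labels' protocols. Tools named in the submitters' processing notes are featureCounts 1.4.6-p4, STAR 2.4.1d and bcl2fastq 1.8.4. Build, annotation, strand setting and handling of shared reads are not given in the sources used here; values of overlapping, antisense or near-identical gene models are uncertain. The deposited counts are whole-number reads per gene model and were used as deposited. The deposited RPKM were scaled by length and library total by the authors. They gave 1 length per gene model only with library totals running down the rows (spread of the implied length 0.0116%, against 18.8% with each library's own total), and served for lengths alone.

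The members, tests and alternatives were chosen with earlier results of these data known. The choice on 8 libraries, the length classes and the comparison of standard errors were added after values were seen. Size factors used the 17400 gene models with counts in all 10 libraries. The counting CV is that of Poisson counts at each gene model's mean and each library's factor. Groups were tested with edgeR 4.0.16 in R 4.3.3 (robust quasi-likelihood fit, median-of-ratios factors, filterByExpr with minimum count 10 and minimum total 15, group as the only term, adjusted p under 0.05). SE is the size of the log2 fold change over the square root of F. Alternatives were other scalings, filters, floors and measures of spread, DESeq2 1.42.0, limma 3.58.1 voom, each library left out, and both that stood apart left out. Scripts were tested on simulated data. No library was a duplicate of another in its group (chi-square per degree of freedom at least 25.4 in all 20 pairs within groups). The check covered pairs within groups only.

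Gene models named were the 3 with the lowest CV, the 3 most and the 1 least abundant, and those on either side of the limit. Also named were the 1 with the lowest ratio of CV to counting CV and the 2 with the lowest p in each direction. Nfu_g_1_000359 was added for its lack of overlap. Lists of reference genes, of cell machinery and of cell type markers needed names and were not analysed here.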

Additional observations from a re-analysis of the deposited data

Results flagged for a closer look

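The share of the library total taken by the 200 gene models lay far from the rest of its group in 2 libraries. It was 1.04% in exercised replicate 3, where the other exercised libraries had 0.45% to 0.57%, and 1.04% in unexercised replicate 4, where the other unexercised libraries had 0.50% to 0.58%. These are the libraries that stood apart in most gene models. With library totals alone, their median log2 ratio to the other 8 was 0.63 over the 5961 and 0.99 for the 200. Such gaps within a group were looked for in 30 groups of 5 values, where a chance rate of 1 in 20 gives about 1.5. The levels of the named gene models after size-factor scaling showed none. Nearly all of these were chosen for low spread over the same libraries, so that rate does not apply to them and nothing is read from the lack of gaps. Over the 200, gaps were found in 14 of 400 groups (3.5%), against 2793 of 11922 (23.4%) over the 5961 eligible gene models. The low spread that chose the 200 also limits such gaps, so nothing is read from this difference.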

How the results depend on the processing

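Of the 200 gene models, 120 were chosen again with upper-quartile factors, 0 with library totals, 73 with the median absolute deviation over the median, 66 without both libraries that stood apart (factors computed again), and 20 with a floor of 50 CPM, which are all those of the 200 above that floor. With each library left out in turn 153 to 185 were chosen again. The calls among the 200 stayed at 0 under each setting tried. Over all gene models they were 2 with library totals, 413 with DESeq2, 1806 with voom and 949 without both libraries that stood apart. With 1 library left out they were 0 to 249, with 249 without exercised replicate 3, 32 without unexercised replicate 4 and 0 otherwise. The median CV of the same 200 was 8.51% with TMM factors, 35.8% with library totals, 7.65% without both libraries and 7.95% to 8.51% with each left out. The median size of the log2 difference between groups was 0.071, 0.069 and 0.070 with upper-quartile factors, library totals and both libraries left out, and 0.059 to 0.073 with each left out. Groups did not overlap for 2 of the 200 with upper-quartile factors, 0 with library totals, and 4 to 9 with each library left out, with 9 without unexercised replicate 5 and 7 without exercised replicate 5. Fewer libraries make separation easier by construction, and for the other changes the cause was not tested. Shares over all gene models are not given for these settings, so the counts without overlap are not read as few or many. The held-out deviation was 0.12 with TMM factors and 0.14 with library totals. In each case gene models were chosen anew on that scale, so neither value describes the 200 above. Depth limits the least abundant of the 200, where counting alone gives a CV of up to 5.66%.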
